A study of Mus musculus with 9 samples.

Results

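Chac1 and 9 genes of glutathione metabolism and of the Nrf2 pathway (Gclc, Gclm, Gss, Gsr, Gpx1, Hmox1, Nqo1, Txnrd1 and Srxn1) were followed in dorsal root ganglia (DRG) of adult mice after sciatic nerve transection. They were taken by gene symbol, as 10 of the 20903 genes tested and 14 of the 41174 probes on the arrays. The genes were chosen by their known roles with the rise of Chac1 on these same arrays already known, so their injured and uninjured values are given as a description, and no test is read from them. All 10 passed the filter on dim probes, and each of the 14 probes was above background in the Cy5 channel on all 9 arrays.

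The samples were L3/L4 DRG, 4 uninjured and 5 injured, and the labels give 3 days after transection. Every sample of both groups, controls included, carries the labels cre.neg and jun.wt, and no strain or age beyond adult is given. The text of the study also gives a shorter interval and L4 alone for these arrays, and a figure legend names sciatic nerve crush in place of transection. Its nerve injury methods take the ganglia of the other side as controls for other assays but do not name the arrays there. Each array set DRG RNA, in Cy5, against a commercial pool of mouse RNA used as common reference, in Cy3, without dye swap, so a log2 ratio of 0 means that a probe was, after normalization, as bright with DRG RNA as with the reference. The labels name no animals, so p-values measure the spread between these samples, which may in part be technical. The arrays lay on 3 slides. Slide 1 held uninjured array 1 and injured arrays 1, 2 and 5, slide 2 held uninjured arrays 2 to 4, and slide 3 held injured arrays 3 and 4, so slide and injury are largely confounded.

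Glutathione is the main small thiol of the cell. Glutamate-cysteine ligase (catalytic subunit Gclc, modifier subunit Gclm) and then glutathione synthetase (Gss) build it from glutamate, cysteine and glycine. Glutathione peroxidases such as Gpx1 spend it on peroxides, and glutathione reductase (Gsr) restores it with NADPH. Chac1 is a γ-glutamylcyclotransferase that breaks glutathione down inside the cell, and it is known as a target of the transcription factor ATF4 in the integrated stress response. The transcription factor Nrf2 (gene Nfe2l2) is held back by Keap1 and, when released, pairs with small Maf proteins on antioxidant response elements of genes such as Gclc, Gclm, Hmox1, Nqo1, Txnrd1 and Srxn1, where Bach1 acts as a repressor.

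Upstream sequence is shown for the members in which a searched motif was found, so that the letters known to be read by the pathway's regulators can be seen beside the values. RefSeq promoters on build GRCm38.p6 were in the table used for 7 of the 10 genes, and Gclc, Gsr and Hmox1 were missing from it. Each stretch of 250 bases before a start site was searched on both strands for the antioxidant response element TGACNNNGC, found in 10.2% of 32851 promoters of that length, for the C/EBP-ATF composite element TGATGNAA (3.45%), and for the AP-1 site TGACTCA (4.46%), whose letters can overlap an antioxidant response element. Capitals mark the match. The Chac1 stretch (chr2:119350992-119351241, plus strand) held a composite element on the reverse strand that begins at position −193 from the start:
Chac1: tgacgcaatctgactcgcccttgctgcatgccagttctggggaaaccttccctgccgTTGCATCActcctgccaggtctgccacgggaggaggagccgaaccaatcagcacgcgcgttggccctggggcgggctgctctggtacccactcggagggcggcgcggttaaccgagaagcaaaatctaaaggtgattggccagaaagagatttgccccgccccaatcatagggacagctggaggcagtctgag
The Srxn1 stretch (chr2:152105274-152105523, plus strand) held 2 AP-1 sites, at positions −102 and −45:
Srxn1: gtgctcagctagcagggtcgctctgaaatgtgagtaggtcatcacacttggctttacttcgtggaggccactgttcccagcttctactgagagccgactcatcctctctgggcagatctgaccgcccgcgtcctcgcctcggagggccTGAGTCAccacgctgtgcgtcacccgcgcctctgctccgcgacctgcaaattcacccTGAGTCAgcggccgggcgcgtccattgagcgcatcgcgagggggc
Antioxidant response elements were found upstream of Gclm (chr3:122245413-122245441, plus strand, motif from position −134) and of the second listed start of Txnrd1 (chr10:82859104-82859132, plus strand, motif from position −92), both on the reverse strand:
Gclm: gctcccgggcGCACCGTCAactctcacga
Txnrd1: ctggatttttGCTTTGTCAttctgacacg
In Srxn1 the AP-1 site at −45 is followed by gc, so these letters differ from TGACNNNGC only by a G in place of the C. Forms of the antioxidant response element other than TGACNNNGC were not searched. None of the 3 motifs was in the stretch of Gss, Gpx1, Nqo1 or the other listed starts of Txnrd1. A match is a description of the letters, not a binding site.

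Chac1, the glutathione-degrading enzyme, was higher on every injured array. Its probe (NM_026929, chromosome 2, 119095103 to 119095162 on mouse build mm7, which holds for all probe positions below) gave log2 ratios of −1.78, −1.64, −1.94 and −1.77 on uninjured arrays 1 to 4 and of 0.15, 0.26, −0.11, 0.45 and 0.24 on injured arrays 1 to 5. The uninjured ganglia thus held less Chac1 signal than the reference RNA and the injured ganglia about as much, and the groups did not overlap. The means were −1.78 ± 0.125 (SD, n = 4) and 0.20 ± 0.202 (SD, n = 5), a log2 difference of 1.98 (standard error 0.106), or 3.95-fold. In the Cy5 channel alone the difference was 2.03, while the Cy3 signal of the reference at this probe differed by −0.02. Its relative Chac2, which breaks glutathione down at a slow constant rate, had a log2 difference of 0.13 (standard error 0.0617) that did not pass the threshold (limma adjusted p = 0.153), with uninjured arrays at 1.26, 1.1, 1.22 and 1.26 and injured arrays at 1.23, 1.37, 1.44, 1.33 and 1.34.

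Of the genes of glutathione synthesis, Gclc was lower on every injured array, and Gclm and Gss overlapped between the groups. For Gclc (NM_010295, chromosome 9, 77835053 to 77835112) the uninjured arrays gave 0.93, 0.69, 1.09 and 0.98 and the injured arrays 0.36, 0.37, 0.51, 0.38 and 0.15. All injured arrays lay below all uninjured arrays, with a log2 difference of −0.57 (standard error 0.0938), or 0.676-fold. Gclm (NM_008129), whose probe spans an interval of chromosome 3 from 122027477 to 122030112, gave 1.63, 1.73, 1.83 and 1.99 on uninjured and 1.68, 1.25, 1.29, 1.48 and 1.65 on injured arrays. Here injured arrays 1 and 5 were above the lowest uninjured array, and the log2 difference was −0.33 (standard error 0.109). On slide 1 alone, where uninjured array 1 stood beside injured arrays 1, 2 and 5, the difference was −0.10 for Gclm and −0.63 for Gclc. Gss (NM_008180, chromosome 2, 155304554 to 155305653) lay between −0.25 and −0.10 on uninjured arrays and gave −0.15, −0.17, −0.22, 0.07 and 0.13 on injured arrays. Injured arrays 4 and 5 were the highest and the groups overlapped, with a log2 difference of 0.11 (standard error 0.0827).

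For recycling and peroxide removal the groups overlapped. Gsr (NM_010344, chromosome 8, 32465796 to 32465855) gave 0.41, 0.45, 0.37 and 0.63 on uninjured and 0.26, 0.27, 0.52, 0.26 and 0.24 on injured arrays. Apart from injured array 3 the injured arrays lay below the uninjured ones, and the log2 difference was −0.16 (standard error 0.0793). The dimmer probes of Gsr (from 32465210 and from 32465775) differed by −0.19 and −0.16, also with overlap of the groups. The probe from 32465775 covers part of the same stretch as the brightest probe, so it is not a fully separate reading. Gpx1 (NM_008160, chromosome 9, 108073279 to 108073338) lay between 0.02 and 0.26 on uninjured and between 0.08 and 0.47 on injured arrays. Its log2 difference of 0.08 (standard error 0.0853) turned to −0.07 with median centring in place of loess and to −0.09 in the Cy5 channel alone, so that no direction can be given.

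Among the classical Nrf2 targets the members went different ways. Srxn1, sulfiredoxin, which restores over-oxidized peroxiredoxins, had a difference close to that of Chac1. Its brightest probe (NM_029688, chromosome 2, 151852040 to 151852099) gave 1.89, 2.15, 1.92 and 1.88 on uninjured and 3.97, 3.90, 3.58, 3.84 and 3.90 on injured arrays. The DRG signal was above the reference in both groups and the groups lay far apart, with a log2 difference of 1.88 (standard error 0.0893), or 3.68-fold. The reference channel of this probe differed by −0.27, and the Cy5 channel alone gave 1.55. The other probes of Srxn1 lie closer to the start of the gene and gave 1.54 (standard error 0.0728, from 151850353) and 1.43 (standard error 0.0734, from 151850306), again without overlap of the groups. These dimmer probes share part of their stretch with each other, so they are not fully separate readings.

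Txnrd1, cytosolic thioredoxin reductase (NM_015762, chromosome 10, 82438991 to 82439050), gave −0.47, −0.70, −0.38 and −0.45 on uninjured and 0.40, 0.40, 0.18, 0.21 and 0.05 on injured arrays. Uninjured ganglia lay below the reference and injured ganglia above it, with a log2 difference of 0.75 (standard error 0.0916), or 1.68-fold. Nqo1, a quinone reductase (NM_008706, chromosome 8, 105988683 to 105988742), gave −1.79, −2.02, −1.77 and −1.55 on uninjured and −2.13, −2.06, −2.06, −2.10 and −2.09 on injured arrays. The injured arrays were all lower, with uninjured array 2 just above them, and the log2 difference was −0.30 (standard error 0.0838). Hmox1, inducible heme oxygenase (NM_010442, chromosome 8, 73642229 to 73642288), gave −1.99, −2.22, −2.25 and −2.08 on uninjured and −2.17, −2.05, −2.19, −1.93 and −2.19 on injured arrays. The groups covered the same range, and the log2 difference of 0.03 (standard error 0.0796) was −0.15 on slide 1 alone and −0.07 with median centring.

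**Figure D1:**
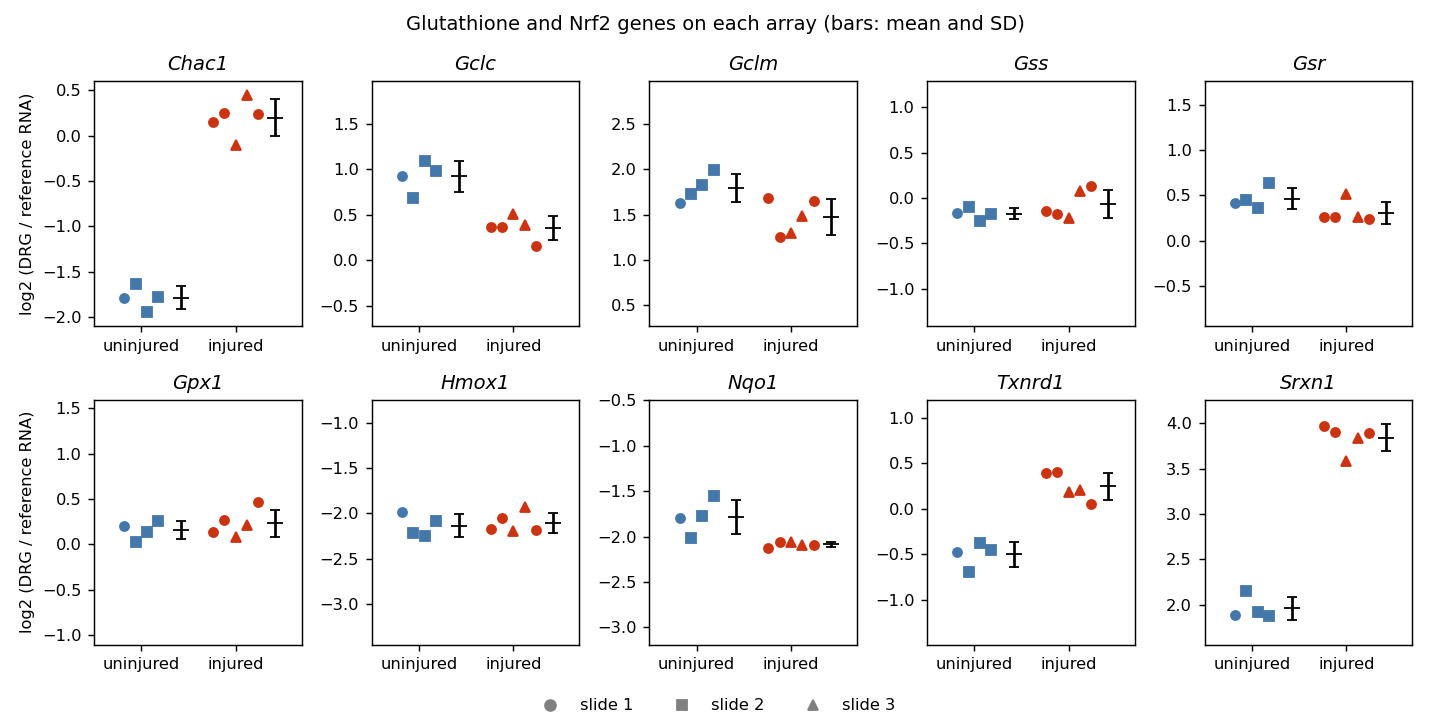
Log2 ratio of DRG over reference RNA for the 10 genes on each array (points; marker shape gives the slide), with the mean and SD of each group as bars; every panel spans the same range of log2 units. Chac1 and Srxn1 show a gap between the groups of more than 1 log2 unit, Txnrd1, Gclc and Nqo1 a smaller gap, and the other genes overlap.

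At a limma adjusted p under 0.05 over all genes, 3 of the 10 were called higher (Chac1, Srxn1 and Txnrd1), where 11.4% of all genes were, and 2 were called lower (Gclc and Nqo1), against 14% of all genes, while 25.4% of all genes were called in either direction. The arrays of the groups did not overlap for these 5 genes, as for 23.9% of all genes. Since the genes were chosen with this contrast known, nothing is read from these shares. The median log2 difference of the 10 was 0.05, that of the 9 without Chac1 was 0.03, and that of all genes was 0.0012. Chac1 and Srxn1 were called in all 25 alternatives tried, and Txnrd1 in all but the fit on slide 1 alone. Gclc was not called with slide as a fixed term or on slide 1 alone, and Nqo1 was lost in 9 alternatives, among them those without uninjured array 1, 3 or 4 or injured array 4.

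**Figure D2:**
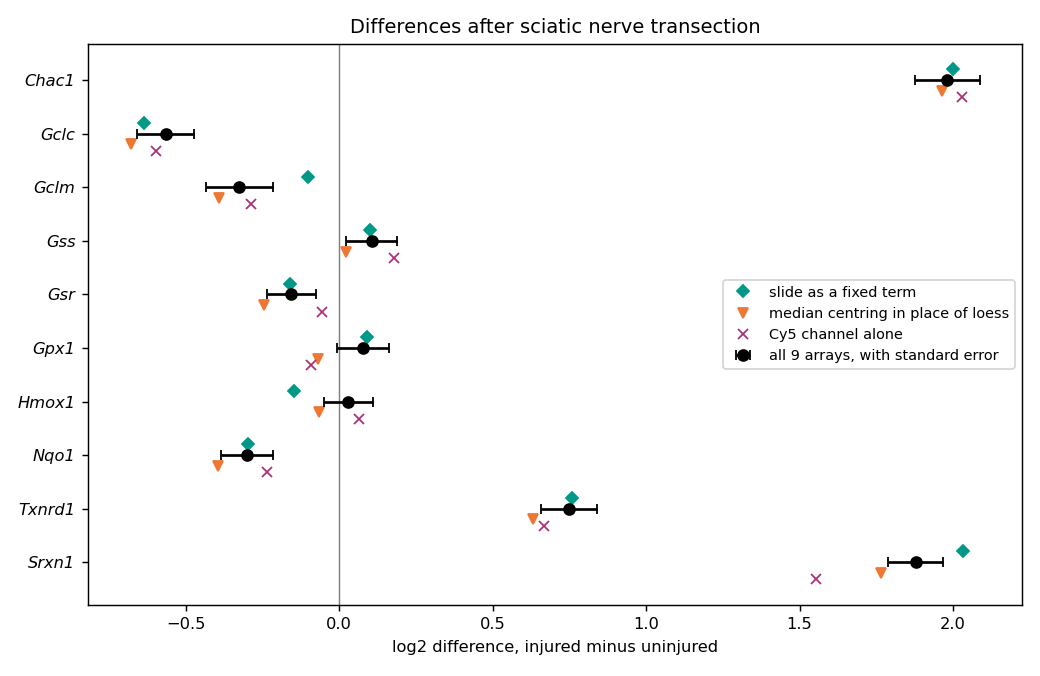
Log2 difference (injured minus uninjured) of each of the 10 genes, with its standard error from limma (black), and the same difference from fits that use slide as a fixed term, median centring in place of loess, or the Cy5 channel alone (colored). Chac1 (1.98) and Srxn1 (1.88) stand far above 0 in each, whereas Gpx1 and Hmox1 lie on both sides of 0.

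**Figure D3:**
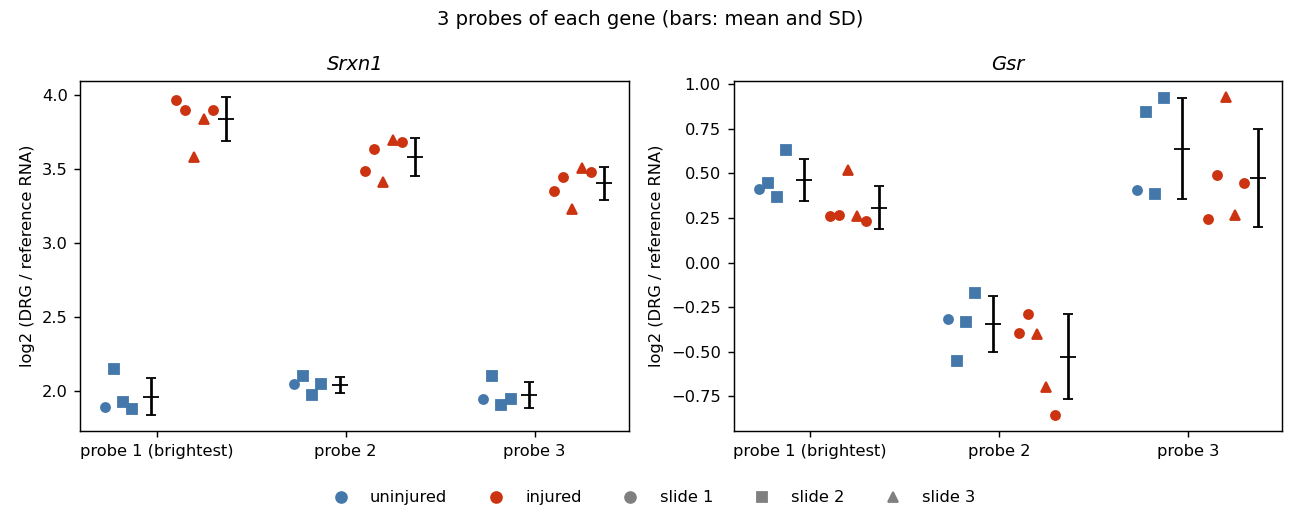
Log2 ratios of the 3 probes of Srxn1 and the 3 probes of Gsr on each array, ordered by Cy5 brightness, with the mean and SD of each group as bars. All 3 Srxn1 probes separate the groups, by 1.88, 1.54 and 1.43, while the Gsr probes overlap.

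Samples of whole ganglia hold several cell types, and fewer cells of a type and less RNA per cell cannot be told apart. The marker counts stand beside 11.4% of all genes called higher and 14% called lower by limma. At an unadjusted p under 0.05, 3536 of the 20903 genes were higher and 4132 lower. Of 13 sensory neuron markers, 12 passed the filter (no probe was matched to Trpv1) and 2 were called lower (Isl1 and Scn11a). Limma gave 1 higher and 3 lower at an unadjusted p under 0.05. The mean of the 12 markers on injured arrays lay between −0.25 and 0.13 relative to the uninjured mean. Their summed Cy5 level, in units of the array median, was 977 to 1049 on injured and 1082 to 1266 on uninjured arrays. Macrophage markers were called higher in 2 of 11 cases (Aif1 and Itgam; 7 were higher at an unadjusted p under 0.05), with a mean shift from 0.05 to 0.93 on injured arrays and a summed level of 13.9 to 29.5 against 9.23 to 16.1 on uninjured arrays. Limma called none of 8 skeletal muscle markers (1 at an unadjusted p under 0.05), but their mean was 1.97 and 3.37 above the uninjured mean on injured arrays 2 and 4 and at most 0.35 above it on the others, and their summed level was 2.79 to 3.01 on uninjured and 2.67 to 61.4 on injured arrays. Without these 2 arrays the log2 difference was 1.88 for Chac1, 1.86 for Srxn1, 0.71 for Txnrd1, −0.58 for Gclc and −0.31 for Nqo1. The call of Nqo1 was then lost. Neutrophil markers (6 of 7 tested, 1 called, Mpo, and 4 higher at an unadjusted p under 0.05) shifted by 0.42 to 2.60, with a summed level of 28.8 to 219.9 on injured and 11.2 to 26.2 on uninjured arrays. Red blood cell markers (4 of 7 tested, none called by limma, 3 at an unadjusted p under 0.05) shifted by −0.06 to 1.57, with a summed level of 92.5 to 508.7 on injured and 81.4 to 113.7 on uninjured arrays, and injured array 2 was the highest for both. Elane was too dim to be tested, and no probe was matched to the names Hbb-bs and Ahsp. Of the satellite glia markers, 2 of 7 were called higher (Glul and Slc1a3) and 1 lower (Cadm2), with the same counts at an unadjusted p under 0.05. Of 5 endothelial markers limma called 1 higher (Tek), and 2 were higher at an unadjusted p under 0.05. None of 7 markers of myelinating Schwann cells was called (2 at an unadjusted p under 0.05), and none of 5 of fibroblasts (0). The part of these cell types in the values of the 10 genes was not tested. The injury itself was plain on each injured array, with Atf3, a transcription factor of injured sensory neurons, at a log2 difference of 5.14 (standard error 0.0686, limma adjusted p = 2.73e-11) and Sprr1a, another gene of axotomized neurons, at 4.99 (standard error 0.104, limma adjusted p = 1.4e-09).

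Genes with the profile most like that of Chac1 were found by the root-mean-square difference of their log2 ratios, each minus its uninjured mean, over the 9 arrays and 20867 other genes. The closest was Csrnp1, a nuclear protein of the immediate early response, at a root-mean-square difference of 0.129. Srxn1, by its brightest probe, came next at 0.142, followed by Nfil3, a bZIP transcription factor, at 0.146, Camk1, a calcium-dependent kinase, at 0.151 and Gadd45g, a stress-induced gene, at 0.160. Their log2 differences were 1.98, 1.88, 2.12, 2.15 and 1.97. The order rests on 1 probe a gene, and the difference was 1.00 for Csrnp1 with the mean of its probes and 1.54 and 1.43 for the other probes of Srxn1. Likeness here is mostly that of the size of the difference between the groups, since the arrays within a group spread little.

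**Figure D4:**
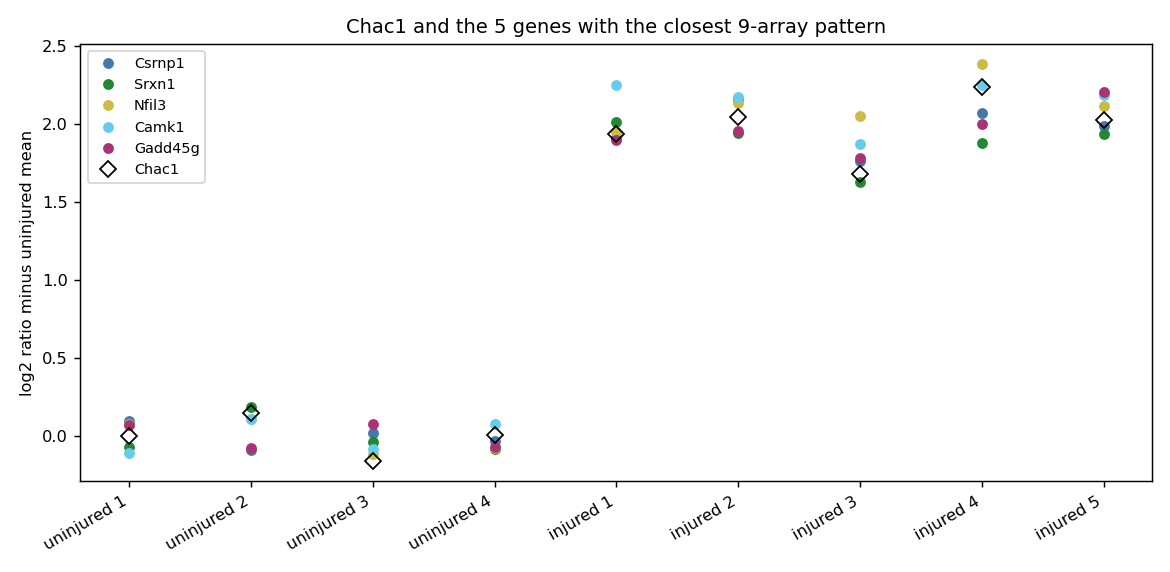
Log2 ratio minus the uninjured mean for Chac1 (open diamonds) and the 5 genes with the closest profile (points) on each of the 9 arrays. All 6 genes stay near 0 on the uninjured arrays and lie between 1.62 (Srxn1, injured array 3) and 2.38 (Nfil3, injured array 4) on the injured arrays.

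A wider list of 106 genes of the same pathways was counted by role. Of these, 101 were tested, 19 were called higher (18.8%, where 11.4% of all genes were) and 13 lower (12.9%, against 14% of all genes), and their median log2 difference was 0.06. The list was chosen with earlier results of these data known, so nothing is read from its counts by role. No probe was matched to Gstp2, and Abcc2, Dpep2, Gpx6 and Slc7a11 were too dim. Slc7a11, the cystine carrier of the exchanger that supplies cysteine for glutathione, had 4 probes, of which 3 were not well above background on any array and 1 was above it on 1 uninjured and 2 injured arrays.

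Cysteine supply held the largest fall of the wider list. Slc1a1, the neuronal carrier of glutamate and cysteine, gave 2.37, 2.41, 2.42 and 2.41 on uninjured and 1.67, 1.41, 1.18, 1.54 and 1.55 on injured arrays. The uninjured arrays lay close together and all injured arrays were lower, with a log2 difference of −0.93 (standard error 0.0903, limma adjusted p = 4.82e-05), and a dimmer probe gave −0.69. Slc3a2, the heavy chain of the cystine exchanger and of other amino acid carriers, rose by 0.51 (standard error 0.0905, limma adjusted p = 0.00212; dimmer probe 0.45). Cth, which makes cysteine from cystathionine, rose by 0.48 (standard error 0.067, limma adjusted p = 0.0005). The list counted 2 higher and 1 lower of 4 tested, with a median of 0.26, where 11.4% of all genes were higher and 14% lower.

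Other genes of glutathione breakdown moved less than Chac1. Of 10 tested, limma called 2 higher and none lower (3 and 0 at an unadjusted p under 0.05), with a median of 0.13. The shares over all genes were 11.4% higher and 14% lower. Ggt5, a γ-glutamyl transferase on the outer cell surface, had a log2 difference of 0.44 (standard error 0.142, limma adjusted p = 0.0436), but 0.06 at its other probe, and it was not called without uninjured array 1, 2 or 3 or injured array 1, 2 or 4. Ggct, another γ-glutamylcyclotransferase, had a log2 difference of 0.38 (standard error 0.106, limma adjusted p = 0.0242; other probe 0.27) and was not called without uninjured array 1, 2 or 3 or injured array 2 or 4.

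The regulators of Nrf2 counted 5 higher and 3 lower of 10 tested, with a median of 0.21. Of all genes, 11.4% were called higher and 14% lower. Bach1, the repressor of antioxidant response elements, gave 0.54, 0.84, 0.60 and 0.87 on uninjured and 1.66, 1.91, 1.69, 1.99 and 2.16 on injured arrays. The groups did not overlap, and Bach1 rose by 1.17 (standard error 0.114, limma adjusted p = 5e-05). Mafk, a small Maf partner of both Nrf2 and Bach1, rose by 0.73 (standard error 0.168, limma adjusted p = 0.00928), and Sqstm1, a cargo receptor of autophagy that binds Keap1, had a log2 difference of 0.47 (standard error 0.12, limma adjusted p = 0.015). The call of Sqstm1 was lost in 6 of the 25 alternatives, among them both other normexp settings, median centring and the Cy5 channel alone, where the difference was 0.28. Nfe2l2, the gene of Nrf2 itself, gave −0.69, −0.89, −0.60 and −0.65 on uninjured and −0.40, −0.28, −0.35, −0.40 and −0.30 on injured arrays. All injured arrays were above all uninjured ones, a rise of 0.36 (standard error 0.0679, limma adjusted p = 0.00324), and its 3 other probes gave 0.31, 0.30 and 0.19. Keap1 fell, with a log2 difference of −0.26 (standard error 0.0745, limma adjusted p = 0.0291), but its groups overlapped. Leaving out any of uninjured arrays 2 to 4 or of injured arrays 1, 2 and 4 ended its call. Bach2 was lower by a log2 difference of −0.44 (standard error 0.0862, limma adjusted p = 0.0041), and Nfe2l1 by −0.28 (standard error 0.0681, limma adjusted p = 0.0125). For both genes all injured arrays lay below all uninjured ones. The remaining call was Maff, higher by 0.46 (standard error 0.0672, limma adjusted p = 0.000682).

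The quinone and xenobiotic enzymes counted 1 higher and 4 lower of 12 tested, with a median of 0.05, against 11.4% higher and 14% lower of all genes. Akr1b8, an aldo-keto reductase, gave −3.17, −3.22, −2.92 and −2.98 on uninjured and −1.66, −1.65, −1.85, −1.55 and −1.69 on injured arrays. It rose by 1.39 (standard error 0.084, limma adjusted p = 1.74e-06), the largest rise of the wider list. Aox1, an aldehyde oxidase, fell, with a log2 difference of −0.53 (standard error 0.0613, limma adjusted p = 0.000159). Ephx1, the microsomal epoxide hydrolase, fell as well, with a log2 difference of −0.45 (standard error 0.104, limma adjusted p = 0.00962; other probe −0.44).

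NADPH, which both glutathione reductase and thioredoxin reductase consume, is supplied in large part by the pentose phosphate pathway. Of 9 genes listed under NADPH supply, limma called 3 higher and none lower (3 and 0 at an unadjusted p under 0.05), with a median of 0.12. Over all genes the shares were 11.4% and 14%. Of the 3, only G6pdx makes NADPH itself, whereas Taldo1 and Tkt act elsewhere in the pentose phosphate pathway. The other 6 genes of the list were not called. Taldo1, transaldolase, rose by 0.69 (standard error 0.0769, limma adjusted p = 0.000123), and G6pdx, glucose-6-phosphate dehydrogenase, by 0.40 (standard error 0.0701, limma adjusted p = 0.00212). Tkt, transketolase, had a log2 difference of 0.24 (standard error 0.0538, limma adjusted p = 0.00816), while its other probe gave 0.03. The call of Tkt was lost in 8 of the 25 alternatives, among them the authors' processed values, both other normexp settings, median centring and the Cy5 channel alone, where the difference was 0.03.

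The 11 thioredoxin and peroxiredoxin genes tested counted 2 higher and none lower in limma (3 and 0 at an unadjusted p under 0.05). Their median was 0.04, and 11.4% of all genes were called higher and 14% lower. Txnrd3, a relative of Txnrd1, rose by 0.39 (standard error 0.0552, limma adjusted p = 0.000532), and Prdx6, a peroxiredoxin that uses glutathione, rose by 0.30 (standard error 0.077, limma adjusted p = 0.0162), with 3 other probes at 0.29, 0.18 and 0.08. Glutathione peroxidases, glutaredoxins and related enzymes counted 3 higher and 1 lower of 13 tested (all genes: 11.4% and 14%), with a median of 0.08. Esd, which hydrolyzes S-formylglutathione, rose by 1.11 (standard error 0.154, limma adjusted p = 0.000483), and its other probes gave 0.96 and 0.79. Glrx, cytosolic glutaredoxin, had a log2 difference of 0.43 (standard error 0.135, limma adjusted p = 0.0386) and was not called without uninjured array 3 or 4 or injured array 2, 4 or 5. Glrx2, its mitochondrial relative, had a log2 difference of −0.35 (standard error 0.114, limma adjusted p = 0.0484), but 0.00078 at its other probe, and the call ended without any 1 of the uninjured arrays or without injured array 1, 4 or 5.

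Glutathione transferases were the largest group and none of the 22 tested was called higher by limma (1 at an unadjusted p under 0.05). Of all genes 11.4% were called higher. The share called lower was 13.6%, close to the 14% of all genes. The 3 called lower had small differences, with −0.34 for Mgst3 (standard error 0.0673, limma adjusted p = 0.00405; other probes −0.29 and −0.17), −0.23 for Gstm5 (standard error 0.0594, limma adjusted p = 0.0179) and −0.21 for Gstz1 (standard error 0.0599, limma adjusted p = 0.0251), and the median was 0.03. Gstm5 was not called without uninjured array 1 or 4, and Gstz1 not without uninjured array 1, 2 or 4 or injured array 2 or 3. Genes of superoxide, heme and iron defense counted 1 higher and 1 lower of 10 tested, with a median of 0.03, near the shares over all genes (11.4% and 14%). Ftl1, ferritin light chain, rose by 0.41 (standard error 0.07, limma adjusted p = 0.0018). Hmox2, the constitutive heme oxygenase, fell, with a log2 difference of −0.25 (standard error 0.0519, limma adjusted p = 0.00544), whereas Hmox1 was not called.

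**Figure D5:**
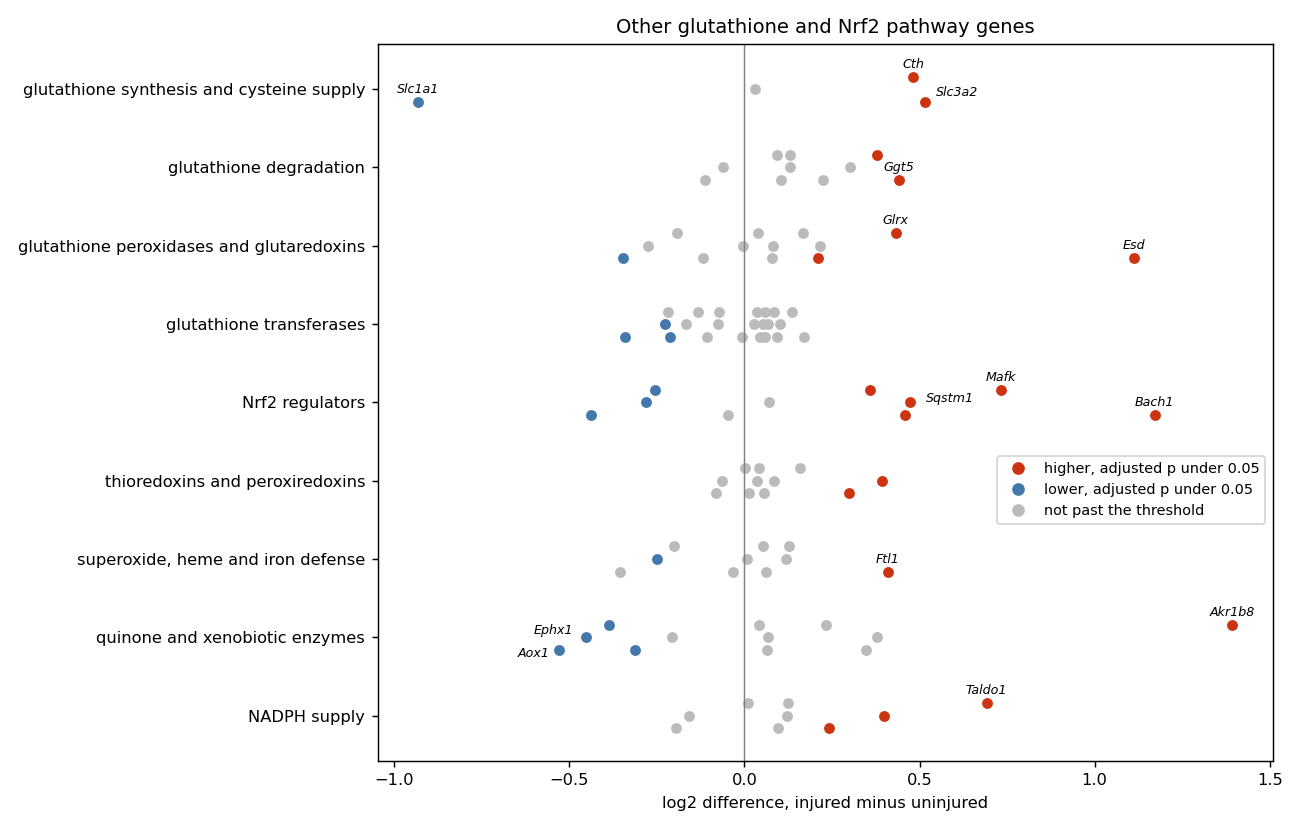
Log2 difference (injured minus uninjured) of each tested gene of the wider list, 1 point per gene by role, colored by its call at a limma adjusted p under 0.05. Akr1b8, Bach1, Esd and Mafk lie farthest to the right and Slc1a1 farthest to the left, and no glutathione transferase is called higher.

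A fixed term for slide leaves uninjured array 1 against injured arrays 1, 2 and 5, and with it the calls of the wider list were 2 higher (Akr1b8 and Bach1) and 2 lower (Aox1 and Slc1a1). With median centring in place of loess they were 6 higher and 4 lower, among them the same 4 genes.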

How the data were processed

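Total RNA of L3/L4 DRG was hybridized to 9 two-channel Agilent arrays. The deposited scanner files give, for each channel, linear intensities of spots (means) and of their surroundings (medians), not normalized. Log10 ratios beside them were made, per the file headers, by Agilent Feature Extraction with its background model and dye normalization. The authors deposited log2 ratios of Cy5 over Cy3, normalized within each array. The authors' notes name limma for the processing. Flags of 0 or 1 in the same scanner files mark spots above background or non-uniform.

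In R 4.3.3 with limma 3.58.1, background was corrected by normexp (offset 50), fitted without spots of non-uniform local background, then loess was run within arrays with control and non-uniform spots at weight 0. On injured array 2, which had 20 such background spots, the slope on the authors' values was 1.01 and would have been 0.841 with all spots in the fit. Probes with Cy5 above background on 4 or more arrays were kept (31192 of 41174), and the brightest probe stood for a gene. Probe names were updated by accession (22951), symbol (6659) or older name (3109), and 8455 kept the file's name. Groups were compared with lmFit and eBayes and Benjamini-Hochberg adjustment over 20903 genes, at an adjusted p under 0.05.

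The members, the wider list and the markers were chosen with earlier results of these data known. Genes named are the members, up to 3 called genes of largest difference in each wider list, Nfe2l2, Keap1, Bach1, Chac2 and Slc7a11. The 5 profiles nearest to Chac1, and Atf3 and Sprr1a, are named as well. Maff, Bach2 and Nfe2l1 are given only to complete the calls among the Nrf2 regulators and are not counted among the named genes under the alternatives. Markers called are named beside their counts. Alternatives were other background corrections, normalizations and filters, slide as a term, array weights, an unmoderated test and leaving out each array; leaving out injured arrays 2 and 4 together was chosen after seeing the data. In data simulated for this comparison, with 200 of 20903 genes changed, 96% of log2 changes of 1 and 61% of 0.5 were recovered, and 7.65% of calls were unchanged genes. Far more genes, 5311, were called in the real data, so these shares may differ there. The number of arrays limits the precision: the share of spots above background in Cy5 ran from 71.0% to 78.9%, and the correlation between arrays was 0.947 or higher over the genes tested. Plots were made in matplotlib 3.10.9 under Python 3.11.15. Sequences are those of RefSeq on GRCm38.p6, and probe positions are those in the files on mm7.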

Additional observations from a re-analysis of the deposited data

Results flagged for a closer look

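In 6 of 94 groups of arrays checked, 1 array lay far from the rest, judged by the gap to its nearest value as a share of the group's range; chance gives about 1 in 20. Gsr was at a log2 ratio of 0.52 on injured array 3, against 0.24 to 0.27 on the other injured arrays. Srxn1 was at 2.15 on uninjured array 2, against 1.88 to 1.92 on the other uninjured arrays. Slc1a1 was at 2.37 on uninjured array 1, against 2.41 to 2.42, and Slc3a2 at −1.14 on uninjured array 3, against −0.98 to −0.96. Ftl1 was at −1.43 on injured array 3, against −1.19 to −1.10, and Camk1 at 1.34 on the same array, against 1.64 to 1.72. Injured and uninjured arrays did not overlap for Srxn1, Slc1a1, Slc3a2, Ftl1 and Camk1.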

How the results depend on the processing

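No paired analysis was possible because no animals are named in the labels and the replicate numbers only follow the order of the samples. The count of genes called, 5311, was 2659 with median centring in place of loess, 1179 with slide as a fixed term, 134 on the slide that holds both groups and 3012 without injured arrays 2 and 4, and lay between 4026 (without uninjured array 1) and 5446 (without injured array 5) with 1 array left out. Members called lower, 2, were 1 with median centring, with the Cy5 channel alone and without injured arrays 2 and 4, 0 with slide as a fixed term and on the slide with both groups, and 1 to 3 with 1 array left out (1 without uninjured array 3 or 4 or injured array 4). The wider list, 19 higher and 13 lower, gave 6 and 4 with median centring, 2 and 2 with slide as a fixed term and 1 and 0 on the slide with both groups; without injured arrays 2 and 4 it gave 15 and 8, and with 1 array left out 15 to 20 and 8 (without uninjured array 4) to 15. As a random block, slide had a correlation of −0.207 between arrays of a slide, and 7406 genes were called. Of the called genes 45.0% were higher, against 53.4% with slide as a fixed term and 88.8% on the slide with both groups. Gpx1 changed sign with an offset of 0 (−0.0028), median centring (−0.070) and the Cy5 channel alone (−0.090), and Hmox1 with median centring (−0.067), slide as a fixed term or the slide with both groups (−0.15), without uninjured array 3 (−0.0095), without injured array 4 (−0.014) and without injured arrays 2 and 4 (−0.048), and lay between −0.014 and 0.079 with 1 array left out. The cause of these changes was not tested, and the fits that leave arrays out also hold fewer arrays. Txnrd1 lost its call on the slide with both groups, and Gclm gained one in 7 alternatives. Over the named genes, 913 of the values under an alternative kept direction and side of the threshold, 145 lost the call, 8 gained it and 9 changed sign.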
